A study of Neurospora crassa OR74A and Aspergillus nidulans FGSC A4 with 22 samples.

Results

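Trehalose and glycogen are the carbohydrate stores of filamentous fungi, and 10 genes for making and breaking them down were followed in *N. crassa* and *A. nidulans* of wild-type background. The genes were taken by identifier from a fixed list of glycogen synthase, glycogen phosphorylase, glycogenin, branching enzyme, trehalose synthase and trehalase genes, by a rule with no threshold on their values. They comprise 7 of the 9582 genes in the *N. crassa* table and 3 of the 10596 genes in the *A. nidulans* table, and all 10 were found. RefSeq gives the symbols *gsy-1* (also *gsn*), *gnn*, *tre-1* and *tre-2* for 4 of them, and the other 6 carry the role under which they were listed.

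*N. crassa* OR74A was grown for 16 h at 25°C in liquid medium with 2% sucrose, washed, and shifted for 4 h to medium with 2% Avicel, a crystalline cellulose, or with no carbon source. *A. nidulans* FGSC A4 was grown for 16 h at 37°C with 1% glucose and shifted for 6 h to the same alternatives, and all cultures were shaken in constant light and harvested as hyphae. Each of these 4 groups had 3 libraries of poly(A)-selected RNA, and the tables used here give 1 value per gene and group, the authors' mean of read counts after scaling by DESeq size factors. These are 12 of the 22 samples of the series, and the remaining 10, from mutant and misexpression strains, were not analysed here.

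Glycogen is a branched glucose polymer that grows on a self-glucosylating protein primer, glycogenin. Glycogen synthase lengthens its chains from UDP-glucose, the branching enzyme adds side chains, and glycogen phosphorylase releases glucose phosphate from the chain ends. Trehalose, a nonreducing glucose disaccharide, is made from UDP-glucose and a glucose phosphate by trehalose synthase acting with a phosphatase, and is split to glucose by trehalases. Fungi commonly have a neutral trehalase in the cytosol, which uses the internal store, and an acid trehalase at the cell surface, which uses trehalose from outside. Both compounds are abundant in conidia, the asexual spores, and are drawn upon in starvation and stress.

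The tables hold group means and no values per library, so no SD can be given for a member. The p-values of the authors' own comparison were not used, and a log2 ratio of the Avicel mean over the no carbon mean was set against a gauge of replicate error. Low group means are sums of whole reads, each divided by its library's size factor, so the reads of the 3 libraries could be recovered for all genes with means from 50 to 100, which were 335 *N. crassa* genes in the Avicel group and 328 in the no carbon group, and 436 and 471 *A. nidulans* genes. The median SD of log2 normalized counts between the 3 libraries of a group was 0.43 (Avicel) and 0.38 (no carbon) for *N. crassa* and 0.30 and 0.35 for *A. nidulans*, counting error included. With counting error removed, a typical gene of this kind has a log2 ratio with a standard error of 0.36 for *N. crassa* and 0.28 for *A. nidulans*. A wider gauge, from the mean and not the median dispersion of the same genes, gives 0.48 and 0.36. The members have means far above 100, and whether the gauge holds at their level was not tested. In all 4 groups the median-based dispersion was lower for genes with means of 50 to 100 than for those of 20 to 50. The recovered size factors correspond to 9.67 to 112 M counted reads per library in *N. crassa*, where 1 Avicel library was much shallower than the others, and to 37.7 to 48.3 M in *A. nidulans*. The *N. crassa* means cannot be given without that library. As a check of the labels, the cellobiohydrolase genes *cbh-1* (NCU07340) and AN5176 had Avicel means 1213 and 490 times their no carbon means.

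Among the 4 glycogen genes of *N. crassa*, all of them detected in both media, the largest difference between the media, in the values as deposited, was that of the glycogen synthase gene *gsy-1* (NCU06687). Its authors' mean was 48444 normalized counts in the Avicel group and 26433 in the no carbon group, which is 1.83-fold higher on Avicel, a log2 ratio of 0.87. That difference was more than 2 typical standard errors from 0 but less than 2 of the wider ones. When both groups were rescaled to equal sums, a setting that lowers every *N. crassa* log2 ratio by 0.45, it was 0.42 and within 2 typical standard errors. The branching enzyme gene NCU05429, at -0.86, then differed most and lay beyond them. That setting also lowers the median of all genes with a mean of at least 10, -0.01 as deposited, by 0.45. No gene's rank among all genes is changed by it. As deposited, the log2 ratio of *gsy-1* was at percentile 91.2 of the log2 ratios of all *N. crassa* genes whose mean was at least 10. As deposited, the other 3 glycogen genes differed by less than 2 typical standard errors.

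The glycogenin gene *gnn* (NCU06698), which encodes the primer protein, had authors' means of 15145 on Avicel and 14878 on no carbon (log2 ratio 0.03). The branching enzyme gene NCU05429 had 25404 on Avicel and 33535 on no carbon, a log2 ratio of -0.40, and was the member with the lowest ratio in *N. crassa*. For the glycogen phosphorylase gene NCU07027 the authors' means were 135860 and 111131, a log2 ratio of 0.29. That ratio was less than 1 typical standard error and became -0.16 under equal sums.

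Per kilobase of gene span in the NC12 annotation, introns included, glycogen phosphorylase was the most abundant transcript of the 7 *N. crassa* members, with 42629 per kb in the Avicel group and 34870 in the no carbon group. Glycogen synthase followed with 11961 per kb on Avicel, but on no carbon it stood at 6527 per kb, below the branching enzyme with 9362. The branching enzyme had 7092 per kb on Avicel. The order of glycogen synthase and branching enzyme was therefore different in the media, while phosphorylase was first in both. The trehalose synthase gene NCU09715 came next with 5701 and 5862 per kb, and *gnn* had 4412 and 4334 per kb. The trehalase genes had the lowest levels per length, with 2785 and 2829 per kb for *tre-2* and 2175 and 2566 for *tre-1*. These orders are given as a description, since differences between genes were not tested.

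**Figure D1:**
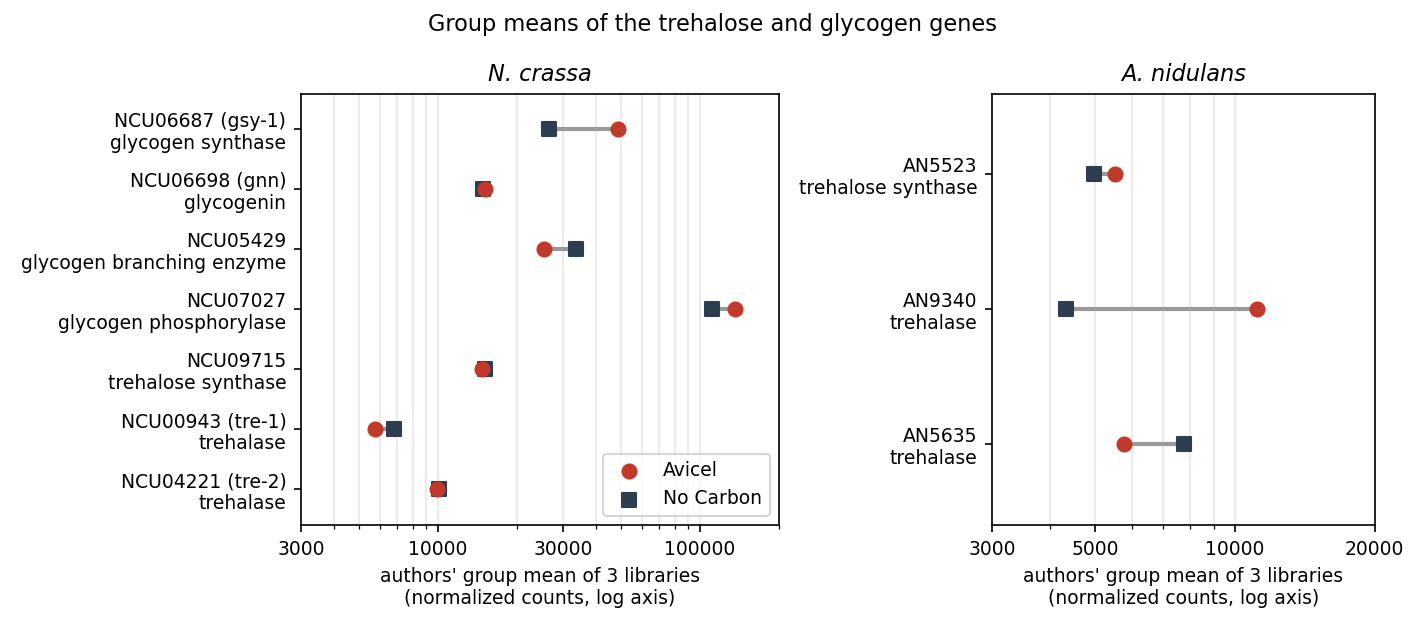
Authors' mean of normalized counts (log axis) of each member on Avicel (circles) and no carbon (squares), 3 libraries behind each mean, with no error bar because the tables give means only; levels are not per length, so only the points of 1 gene should be compared. The widest gaps are those of AN9340, 11142 on Avicel against 4324 on no carbon, and of *gsy-1*, 48444 against 26433.

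The 3 trehalose genes of *N. crassa* were nearly level between the media. The trehalose synthase gene NCU09715 had authors' means of 14761 on Avicel and 15177 on no carbon, a log2 ratio of -0.04. For *tre-2* (NCU04221), known as the neutral trehalase, the means were 9943 and 10099, a log2 ratio of -0.02. For *tre-1* (NCU00943), known as the acid, cell-wall trehalase, they were 5774 and 6813, a log2 ratio of -0.24. All 3 log2 ratios were smaller than 1 typical standard error. An absence of change is not shown by this, since 2 typical standard errors cover a log2 difference of 0.71 in either direction.

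Over the 7 *N. crassa* members, 0 were at least 2-fold higher and 0 at least 2-fold lower on Avicel, where 7.64% and 4.74% of the 8782 genes with a mean of at least 10 were past those limits. These are counts of fold size without a test. By the gauge, 1 of 7 was higher by more than 2 typical standard errors and 0 were lower, against 11.1% and 8.95% of all genes. Under equal sums that count became 0 higher and 1 lower, the branching enzyme gene NCU05429, and by the wider gauge it was 0 in both directions under either scaling. The shares of all genes are as deposited and include genes with low means, whose counting error the gauge leaves out. Equal sums lowers the log2 ratio of every *N. crassa* gene by 0.45, and shares under it or by the wider gauge are not given here. The median log2 ratio of the members was -0.02, and that of all genes with a mean of at least 10 was -0.01. Of these members, 3 had the higher mean on Avicel as deposited, and 1 of 7, *gsy-1*, under equal sums, where *gnn* was at -0.43 and NCU07027 at -0.16. Together the 7 genes held 0.445% of the normalized counts of the Avicel group and 0.521% of those of the no carbon group. Their summed counts went the other way, 255331 on Avicel and 218066 on no carbon (log2 ratio 0.23). The share was lower on Avicel because the sum over all genes rose more (log2 ratio 0.45).

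In *A. nidulans* the trehalase genes differed from each other. The mean of AN9340, known as the acid trehalase, was 2.58-fold higher on Avicel, whereas that of AN5635, known as the neutral trehalase, was 1.34-fold higher on no carbon. The authors' mean of AN9340 was 11142 normalized counts in the Avicel group and 4324 in the no carbon group, a log2 ratio of 1.37. This was more than 2 standard errors by either gauge, and lay at percentile 94.1 of all *A. nidulans* genes with a mean of at least 10. For AN5635 the authors' means were 5772 and 7759, a log2 ratio of -0.43, within 2 typical standard errors of 0. The trehalose synthase gene AN5523 had 5504 on Avicel and 4973 on no carbon, a log2 ratio of 0.15, or less than 1 typical standard error.

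Of the 3 *A. nidulans* members, 1 was at least 2-fold higher and 0 at least 2-fold lower on Avicel, beside 9.38% and 3.42% of the 9719 genes with a mean of at least 10. By the gauge, 1 was higher by more than 2 typical standard errors and 0 were lower, against 18.4% and 12.8% of all genes. The median log2 ratio of the 3 genes was 0.15, against -0.03 over all genes. Rescaling to equal sums lowers each *A. nidulans* log2 ratio by 0.14, which left AN9340 at 1.22, AN5523 at 0.01 and AN5635 at -0.57, with the same signs as deposited. The 3 genes held 0.0480% of the normalized counts of the Avicel group and 0.0403% of those of the no carbon group.

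**Figure D2:**
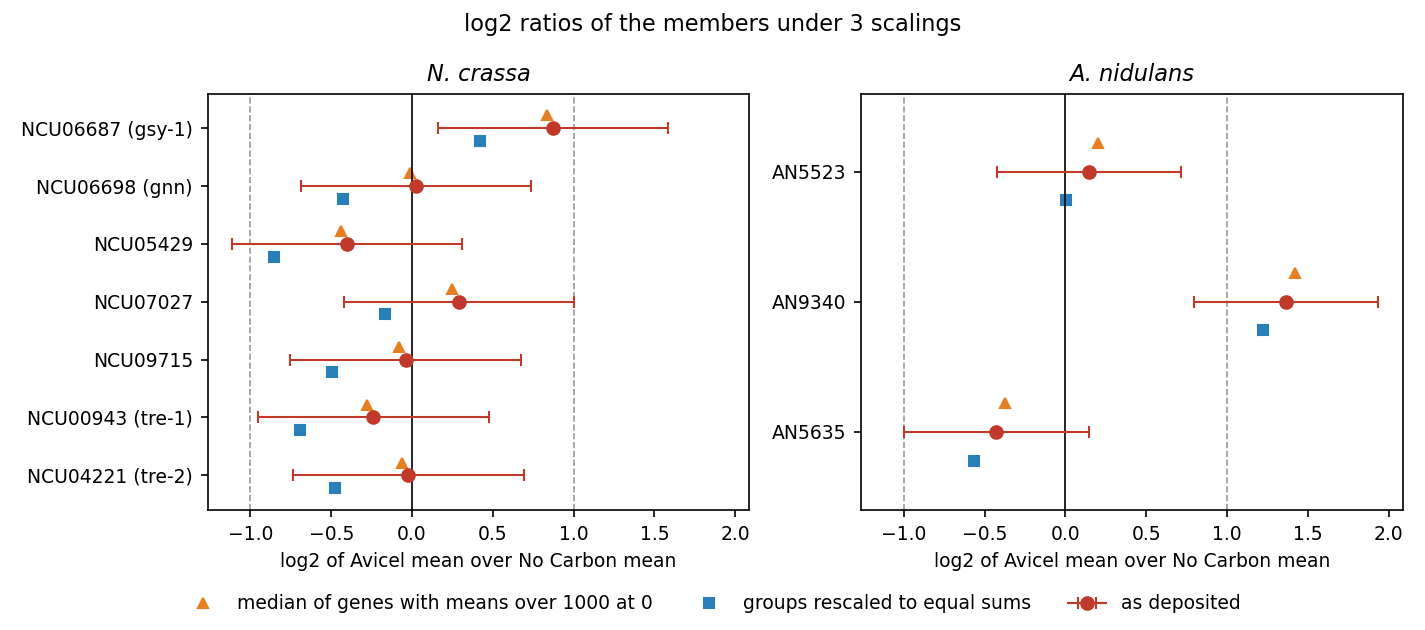
Log2 of the Avicel mean over the no carbon mean for each member as deposited (circles), with the median of genes with means over 1000 set to 0 (triangles) and with groups rescaled to equal sums (squares); bars are 2 typical standard errors taken from other genes with means of 50 to 100, and dashed lines mark 2-fold. AN9340 stays right of the 2-fold line under all 3 scalings (1.22 to 1.42), *gsy-1* is at 0.42 to 0.87, and the bars of the other members cross 0.

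**Figure D3:**
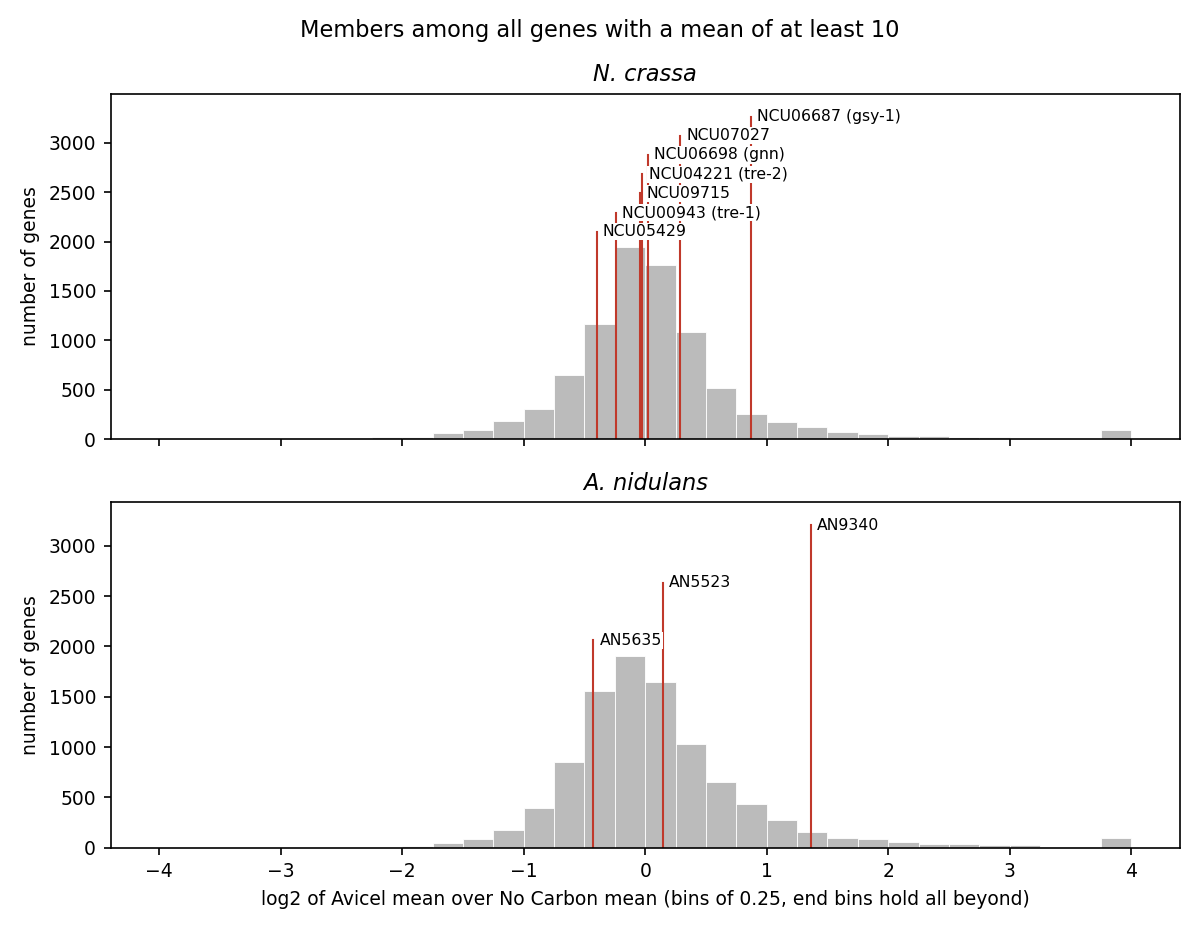
Number of genes with a mean of at least 10 by log2 ratio of Avicel over no carbon (bars, bins of 0.25), with each member as a line. AN9340 lies in the right tail, at percentile 94.1, and *gsy-1* is at percentile 91.2, while the other members lie among the bulk of genes.

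Ratios between members of the same table do not depend on how the groups were scaled. In *A. nidulans* the ratio of AN9340 to AN5635 was 0.557 on no carbon and 1.93 on Avicel, a log2 difference of 1.79, where 2 typical standard errors of such a difference are 0.81, and 2 of the wider ones 1.03, if the genes vary independently. Of the counts of both trehalase genes, not corrected for gene length, AN9340 held 35.8% on no carbon and 65.9% on Avicel. Relative to trehalose synthase, AN9340 was higher on Avicel by 1.22 on the log2 scale, also beyond both limits, and AN5635 had a log2 difference of -0.57, within them. In *N. crassa* the corresponding shares of *tre-1* in the counts of both trehalase genes were 40.3% and 36.7%, and its ratio to *tre-2* had a log2 difference of -0.22, within the typical limit of 1.01 for that species.

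Among the glycogen genes, the ratio of glycogen synthase to branching enzyme was 0.788 on no carbon and 1.91 on Avicel, a log2 difference of 1.27. It was the only one of the 8 *N. crassa* ratios computed that was beyond the typical limit, and it was within the limit of the wider gauge, 1.35. The ratio of synthase to glycogenin had a log2 difference of 0.85 and that of phosphorylase to synthase one of -0.58, both within it. Trehalose synthase against glycogen synthase, which draw on the same UDP-glucose, had a log2 difference of -0.91, within the limit as well. In all, 11 such ratios were computed in both species, chosen with the values known, so the differences beyond the limit are descriptions. The genes *gsy-1* and *gnn* are close neighbors on their chromosome in the RefSeq order, with 9 genes between them. The 8 of these with a mean of at least 10 had log2 ratios from -0.23 to 0.79, with a median of 0.20, and 1 of them was beyond 2 typical standard errors.

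The study set the species side by side, and 3 members of each are listed as trehalose synthase or trehalase. The list does not tell acid from neutral trehalases, so these were paired by general knowledge. Whether the paired genes are orthologs was not checked. For the acid trehalases the log2 ratio was -0.24 in *N. crassa* (*tre-1*) and 1.37 in *A. nidulans* (AN9340), a difference of 1.60, larger than 2 combined typical standard errors (0.91) and than 2 of the wider ones (1.20). For the neutral trehalases it was -0.02 (*tre-2*) and -0.43 (AN5635), and for the trehalose synthases -0.04 (NCU09715) and 0.15 (AN5523), both within 0.91 of each other. The species were grown at different temperatures on different sugars, harvested at different times and normalized in separate tables, so species and culture regime cannot be told apart, and levels were not compared between them. No glycogen gene of *A. nidulans* is on the member list.

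Further genes of these pathways were taken from a short list of identifiers, 4 in each species. In *N. crassa*, NCU09559, which RefSeq names *ccg-9* and which is known as a clock-controlled trehalose synthase gene of another type, had authors' means of 10280 on Avicel and 3853 on no carbon, 2.67-fold higher on Avicel (log2 ratio 1.42, percentile 95.4). The means of NCU05041, NCU00743 and NCU00793 were also higher on Avicel, with log2 ratios of 0.52, 0.44 and 0.21, all within 2 typical standard errors. Rescaled to equal sums, the log2 ratios of *ccg-9* and NCU05041 were 0.96 and 0.07, and those of NCU00743 and NCU00793 changed sign to -0.01 and -0.25. The listed *A. nidulans* genes AN8010, AN2314 and AN1015 had log2 ratios of 0.68, 0.54 and 0.43 and AN3441 one of -0.35, with the same signs after rescaling. Of these 8 genes, *ccg-9* was the only one past 2-fold, beside 7.64% of all *N. crassa* and 9.38% of all *A. nidulans* genes that were at least 2-fold higher, and under equal sums it fell short of that limit. As deposited, *ccg-9* was beyond 2 standard errors by either gauge. Under equal sums it was beyond 2 typical ones, but at 0.961 it was only just past 2 of the wider ones (0.956). As deposited, 11.1% of all *N. crassa* genes were higher by the typical gauge, and shares by the wider gauge or under equal sums are not given here. AN8010 was beyond 2 typical standard errors as deposited, beside 18.4% of all *A. nidulans* genes, but within 2 of the wider ones and, under equal sums, at 0.53, within 2 typical ones. The median log2 ratio was 0.48 over the *N. crassa* list and 0.49 over the *A. nidulans* list, beside -0.01 and -0.03 over all genes. Apart from the symbol *ccg-9*, the sources used here give no name or role for these identifiers, and the role stated for *ccg-9* is general knowledge.

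Conidia are rich in both stores, so genes of conidiation were read beside the members. All 5 listed *N. crassa* genes had lower means on Avicel, from 2.00-fold for *fl* (NCU08726), a regulator of conidiation, to 4.44-fold for *eas* (NCU08457), which encodes the hydrophobin of the spore coat. The others were *con-10* (NCU07325), *con-6* (NCU08769) and *con-8* (NCU09235), with log2 ratios of -1.90, -1.61 and -1.22. All 5 listed *A. nidulans* genes, AN0973, AN0422, AN1937, AN8803 and AN8006, were also lower on Avicel, by 1.73-fold to 3.19-fold. The 10 differences were each larger than 2 standard errors by either gauge, and their direction was the same under all scalings tried. By the typical gauge as deposited, 8.95% of all *N. crassa* genes and 12.8% of all *A. nidulans* genes were lower on Avicel. The shares for the wider gauge are not given here. Summed, the *N. crassa* list held 0.253% of the counts of the Avicel group and 1.40% of those of the no carbon group, and the *A. nidulans* list 0.225% and 0.524%. No gene of these lists was at 0 in a group. Of the 10 members, 5 had the lower mean on Avicel and 5 the higher as deposited, or 7 and 3 under equal sums. As deposited, the median gene with a mean of at least 10 was itself nearly level (*N. crassa* -0.01, *A. nidulans* -0.03). Equal sums lowers every log2 ratio, by 0.45 (*N. crassa*) or 0.14 (*A. nidulans*), so the median gene is then lower on Avicel too. A likeness of the members to the conidiation genes cannot be read from these tallies. The part of conidiating cells in any member's level was not tested. In such bulk RNA, fewer cells of a type and less RNA per cell cannot be told apart.

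**Figure D4:**
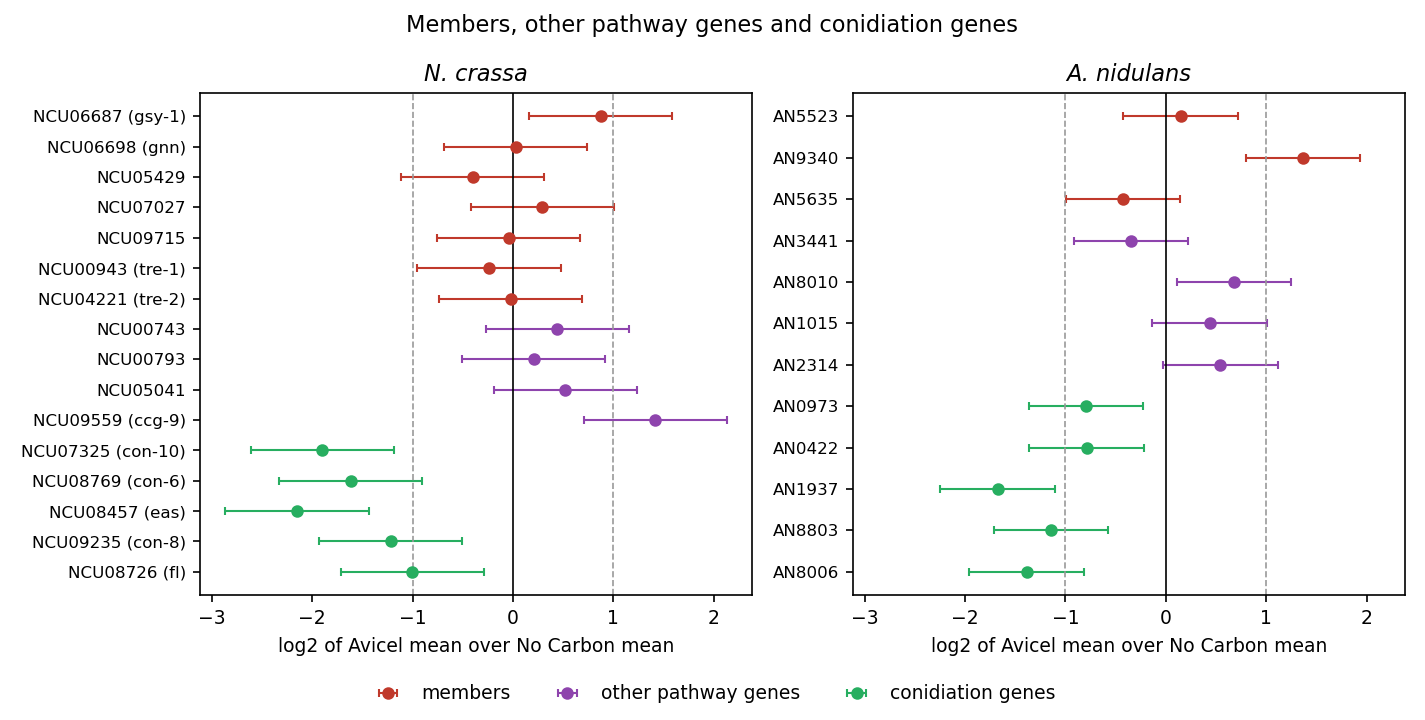
Log2 ratio of Avicel over no carbon for the members, the other pathway genes and the conidiation genes of each species; bars are 2 typical standard errors taken from other genes, and dashed lines mark 2-fold. The 10 conidiation genes lie left of 0 (-2.15 to -0.79), while AN9340 at 1.37 and *ccg-9* at 1.42 lie farthest to the right.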

How the data were processed

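Reads were mapped by the authors with TopHat 2.0.4 to predicted transcripts, tallied on unique exons with HTSeq and normalized with DESeq, per the labels and the study's methods; the versions of HTSeq and DESeq and the genome builds are not given in the sources used here. Each signal value the authors deposited is the mean over the 3 libraries of a group of counts scaled by size factors. The authors' deposited fold changes and p-values were not used. The planned edgeR fit needs counts per library and was not made.

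Log2 ratios were taken with no pseudocount (Python 3.11.15, numpy 2.4.6, pandas 2.3.3, scipy 1.17.1, matplotlib 3.10.9). Percentages over all genes cover those whose mean of both groups was at least 10. The gauge applied to them leaves out counting error, which is larger at low means. Size factors and single-library reads were recovered from low means and tested on simulated data, where all 322, 328, 446 and 454 simulated means of 50 to 100 with 1 solution (in the order of the groups below) gave back the right reads. The typical dispersion is the median squared coefficient of variation, corrected for 3 libraries, less counting error. It was 0.0870 and 0.0958 in *N. crassa* (Avicel, no carbon) and 0.0459 and 0.0711 in *A. nidulans*, and 0.118, 0.103, 0.0631 and 0.0866 for genes with means of 20 to 50. All members were named, and other genes came from listed identifiers, since the annotation used here has no product names; members and lists were chosen with earlier results of these data known. Planned and added alternatives were other pseudocounts, scalings, fold limits and filters.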

Additional observations from a re-analysis of the deposited data

How the results depend on the processing

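No paired analysis was possible because the columns are group means and carry no replicate number, and for the same reason no library could be left out. Adding a pseudocount of 1 or 10 moved no member's log2 ratio by more than 0.00204, and recentring on the median of genes with means of at least 100 moved none by more than 0.0455. Recentring on genes with means of at least 1000, chosen after seeing the data, turned the sign of *gnn* only, to -0.02. Rescaling to equal sums moved the 7 *N. crassa* members by 0.455, more than 1 typical standard error, and turned the sign of *gnn* and NCU07027. It brought *gsy-1* within 2 typical standard errors and NCU05429 beyond them, while the median *N. crassa* gene was lowered by the same 0.455. The *A. nidulans* members were moved by less than 1 typical standard error. The number of *N. crassa* members higher on Avicel by the fold limit was 0 at 2-fold and became 1 at 1.5-fold, and that of *A. nidulans* was 1 at 2-fold and became 0 at 4-fold. The counts of lower members stayed at 0 under the 1.5-fold and 4-fold limits and under each scaling. Without the filter on low means, the share of all *N. crassa* genes at least 2-fold lower was 7.66% in place of 4.74%. Depth does not limit the members, whose means are all far above 100; replicate error, known here only from other genes, does.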
